A study of Mus musculus with 10 samples.

Results

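DNA methylation in testis was followed at 10 genes that mouse spermatids use to build the sperm nucleus, the acrosome and the tail: Tnp1, Tnp2 and Crem for the nucleus, Izumo1, Spaca1, Zpbp and Acr for the acrosome and contact with the egg, and Odf1, Odf2 and Akap3 for the tail. They were chosen by their known roles, and their region was the gene with 2 kb beyond both ends. All 10 of 10 genes held at least 3 covered CpGs and were counted, out of 17645 such gene regions among 21900 protein-coding genes. Their regions held 336 of the 1407384 covered CpGs, read at 482 of 1988759 cytosines (each strand of a CpG is a cytosine of its own). The data came from reduced representation bisulfite sequencing, in which a restriction enzyme enriches CpG-rich fragments and bisulfite turns unmethylated cytosines into bases read as thymine. The libraries were testis DNA of the F2 generation, 5 labelled arsenic and 5 labelled control. The labels name neither the ancestor that was treated nor a dose, strain or age, and they do not say whether each library is a separate animal. The p-values therefore set a group difference only against the spread of these libraries, and that spread may be technical. A methylation level is the share of methylated among all reads of the cytosines named, in percent. A difference is arsenic minus control in percentage points. Unless stated otherwise, it is read-weighted, from reads summed over the libraries of a group. It can therefore depart from the difference of the printed means.

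Spermatids remove most of their histones and pack DNA with transition nuclear proteins, made by Tnp1 and Tnp2, before protamines take their place. Crem is the transcription factor that turns on many genes of this stage in mouse, through the cAMP response element. The acrosome is a secretory cap that carries enzymes and zona pellucida binding proteins, and the tail is stiffened by outer dense fibres and a fibrous sheath. Methylation of CpGs at a gene's start is often low in tissues where the start is in use.

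Over all covered cytosines, libraries held 87658994 to 100355708 reads in arsenic and 69771871 to 92434984 in control, with a median coverage per cytosine of 35 to 40 reads in arsenic and 27 to 36 in control. Control libraries 4 and 5 stood apart: the share of fully methylated cytosines was 11.2 to 14.9% in the arsenic libraries, against 16.9% in control library 4, 18.8% in control library 5 and 12.7 to 13.5% in the other control libraries. Imprinted regions checked the tissue. Maternally methylated regions, which male germ cells lack and somatic cells carry on 1 allele, averaged 9.70 to 11.3% in arsenic and 6.03 to 15.1% in control libraries (8 of 12 regions measured). The paternally methylated region upstream of H19 stood at 93.0 to 98.5% in arsenic and 92.5 to 100% in control libraries. In bulk testis, a change in the share of a cell type and a change in the level per cell cannot be told apart.

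Of the 7 genes with an entry in the RefSeq promoter table (assembly GRCm38.p6, the assembly behind mm10), 3 had covered CpGs in the 300 bases from 250 before to 50 after the start. These 3 windows are shown because they hold covered CpGs, and their levels run from low to high. Each is written 5′ to 3′ on the gene's strand in lower case, with the CpGs covered in all 10 libraries in capitals. The Tnp1 window is chr1:73015850-73016149 on the minus strand, that of Tnp2 is chr16:10788606-10788905 on the minus strand, and that of Odf2 is chr2:29889470-29889769 on the plus strand.
Tnp1: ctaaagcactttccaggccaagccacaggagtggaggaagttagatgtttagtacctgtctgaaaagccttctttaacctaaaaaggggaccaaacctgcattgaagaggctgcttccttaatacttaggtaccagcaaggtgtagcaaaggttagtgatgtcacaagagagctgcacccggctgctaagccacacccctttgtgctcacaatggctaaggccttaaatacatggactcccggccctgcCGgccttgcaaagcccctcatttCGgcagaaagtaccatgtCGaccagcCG
Tnp2: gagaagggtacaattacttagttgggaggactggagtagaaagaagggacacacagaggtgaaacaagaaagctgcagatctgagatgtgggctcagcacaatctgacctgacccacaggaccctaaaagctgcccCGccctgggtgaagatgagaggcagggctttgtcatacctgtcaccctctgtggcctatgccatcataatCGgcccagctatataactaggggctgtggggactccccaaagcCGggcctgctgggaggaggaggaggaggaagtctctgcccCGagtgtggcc
Odf2: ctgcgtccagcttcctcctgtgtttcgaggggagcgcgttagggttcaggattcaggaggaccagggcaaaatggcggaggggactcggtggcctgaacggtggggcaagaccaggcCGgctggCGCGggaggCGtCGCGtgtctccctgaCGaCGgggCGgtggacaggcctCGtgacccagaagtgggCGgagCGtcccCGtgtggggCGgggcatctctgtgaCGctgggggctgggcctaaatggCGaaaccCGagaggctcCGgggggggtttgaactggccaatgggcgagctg
The Tnp1 window held 6 CpGs, 4 of them covered, and their levels averaged 15.2% in arsenic and 21.3% in control libraries. These 4 lay from 1 base before to 48 bases after the start, so the stretch further upstream was not measured. In the Tnp2 window all 4 CpGs were covered and averaged 90.6% in arsenic and 91.6% in control libraries. The Odf2 window was CpG-rich, with 26 CpGs of which 18 were covered, and averaged 2.54% in arsenic and 1.01% in control libraries. Arsenic library 3 was the highest library at most of these 18. In the averages of these 3 windows each covered CpG weighed the same, whatever its reads. Over 27025 promoters of this length the median was 7 CpGs. The windows of Akap3, Izumo1, Spaca1 and Zpbp held 0, 8, 16 and 7 CpGs, none of them covered. The promoters of Crem, Odf1 and Acr are not shown.

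The motif TGACG, the core of the element that CREM binds, was searched on both strands. It lay in 3 of the 7 windows, those of Odf2, Izumo1 and Spaca1, with 2 matches in each, and in 20.9% of all promoters. In Izumo1 the 2 matches, 96 bases before the start, lay on opposite strands and overlapped. The 2 matches of Odf2 began 102 and 27 bases before the start, and each held 1 covered CpG. The CpG of the first averaged 1.92% ± 4.28 in arsenic (SD, n = 5) and stood at 0.0% in all 5 control libraries. Arsenic library 3 stood at 9.57% there, and the other arsenic libraries also at 0.0%. The CpG of the second averaged 2.13% ± 3.48 in arsenic and 0.471% ± 1.05 in control (SD, n = 5 each). Arsenic library 3 stood at 8.0% there, arsenic library 2 at 2.63%, control library 3 at 2.35% and the rest at 0.0%. A match is a string of letters and not a site shown to be bound.

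No gene of the set passed the test between arsenic and control. Each of the 17645 gene regions was fitted with a quasi-binomial logistic model with a group term, and a region was called at an adjusted p under 0.05 (Benjamini-Hochberg over all regions) and a difference of at least 10 points. Of the 10 genes 0 were called, against 0.0% of all regions, and 0 had an unadjusted p under 0.05, against 5.72% (1.42% higher and 4.3% lower in arsenic). With limma on the log2 of methylated over unmethylated reads, 0 of the 10 and 1 region of the whole table were called. The levels of the groups overlapped at all 10 genes, and did not overlap at 0.771% of all regions. The genes differed from each other far more than the groups did, as the plot of levels by library shows: Crem lay at 3.49% and Acr at 95.3% over the 10 libraries.

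**Figure D1:**
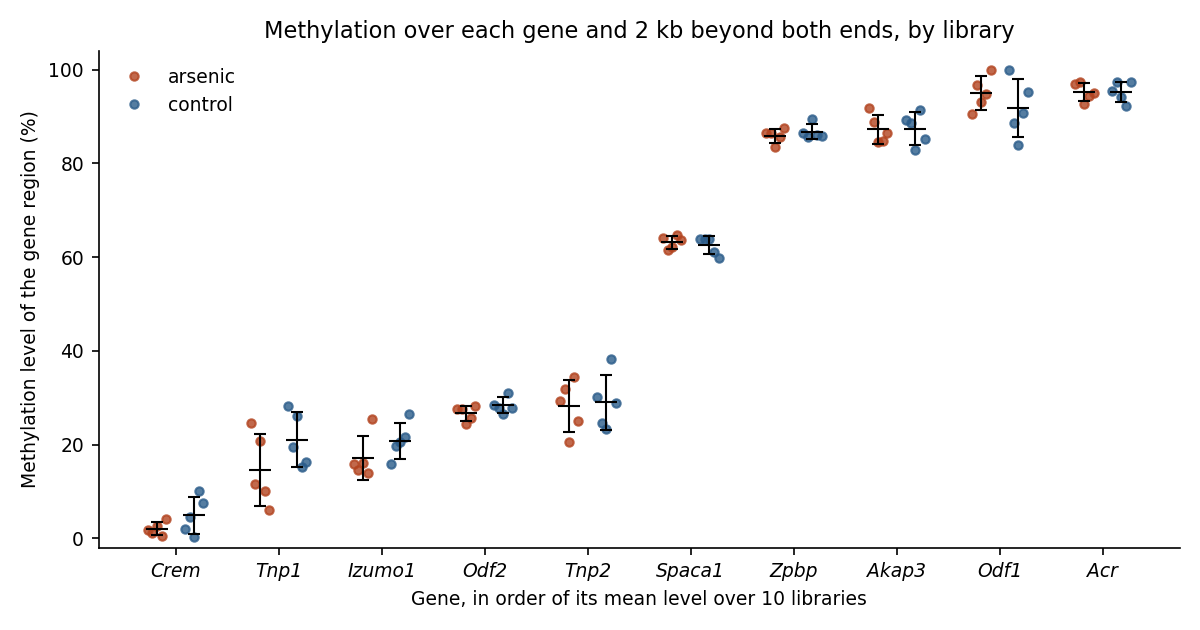
Methylation level (%) of each gene with 2 kb beyond both ends, one point per library, arsenic left of control, with the mean and SD as black bars (n = 5 each); genes run from low to high mean level. Crem, Tnp1, Izumo1, Odf2 and Tnp2 lie under 40%, Spaca1 near 63%, and Zpbp, Akap3, Odf1 and Acr above 80%, and the points of the groups overlap at every gene.

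Tnp1 makes transition nuclear protein 1, which replaces histones as the spermatid nucleus condenses. Its region had the widest group difference of the set. The gene lies at chr1:73015074-73015899 on the minus strand, and its 7 covered CpGs lay within 136 bp at the start of the gene. It stood at 24.5, 11.6, 20.7, 10.03 and 6.11% in arsenic libraries 1 to 5, against 28.2, 19.4, 26.1, 15.2 and 16.3% in control libraries 1 to 5. Arsenic libraries 2, 4 and 5 were lower than every control library, while arsenic libraries 1 and 3 lay among the control libraries. The means were 14.6% ± 7.70 in arsenic and 21.1% ± 5.82 in control (SD, n = 5 each). The read-weighted difference was -7.11 points and did not pass (adjusted p = 0.905 over all gene regions, quasi-binomial model). Of all gene regions, 1.196% had a difference as low or lower. Without control libraries 4 and 5 the difference was -10.02 points (adjusted p = 0.969), and leaving out 1 library at a time gave -9.63 to -4.51 points, the smallest of them without arsenic library 5.

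The 7 CpGs of Tnp1 were alike within most libraries. Each of the 7 had a lower mean in arsenic, between 11.7% ± 6.57 and 17.4% ± 8.75, against 17.2% ± 10.3 and 24.8% ± 3.30 in control at the same pair of CpGs. In arsenic library 5 the CpGs ran only from 4.90 to 10.7%, and in control library 1 from 23.0 to 35.6%. They spread more in arsenic library 3, from 12.2 to 30.9%, and in control libraries 4 and 5, from 3.08 to 21.9% and from 3.23 to 27.7%. CpGs this close are often read by the same fragments, so they are not separate measurements of the difference. The dispersion of the model, the variance between libraries over that of counting error alone, was 24.3, against a median of 13.6 over all gene regions. Reads per library over these CpGs numbered 381 to 870, and the 95% Wilson interval of a library's level was 3.24 to 7.21 points wide.

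**Figure D2:**
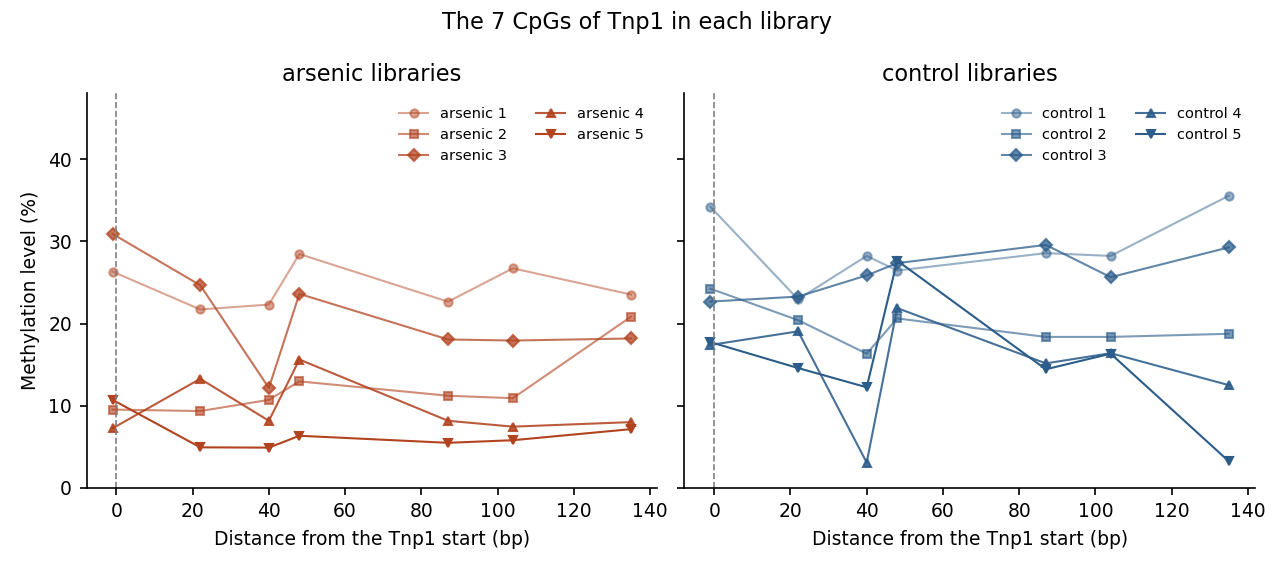
Methylation level (%) of the 7 Tnp1 CpGs by distance from the gene start (bp), arsenic libraries in the left panel and control libraries in the right, one line per library, the dashed line marking the start. Lines of several libraries cross, while arsenic 5 stays between 4.90 and 10.7% and control 1 between 23.0 and 35.6%.

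Tnp2, the gene of transition nuclear protein 2, lies at chr16:10787935-10788655 on the minus strand and had 23 covered CpGs in its region. The region stood at 29.3, 32.0, 20.6, 34.4 and 25.04% in arsenic libraries 1 to 5, against 30.1, 24.6, 23.3, 38.2 and 28.8% in control libraries 1 to 5. The groups overlapped, at 28.3% ± 5.51 in arsenic and 29.0% ± 5.89 in control (SD, n = 5 each; adjusted p = 0.993, quasi-binomial model). That middle level was the average of a high and a low stretch. The tile at the start (chr16:10788001-10789000, 9 CpGs) averaged 89.3% ± 4.27 in arsenic and 90.6% ± 2.47 in control. The low stretch lay outside the gene. One of its tiles (chr16:10786001-10787000, 10 CpGs) begins 935 bp beyond the other end of Tnp2 and is nearer to Socs1, at 465 bp. That tile averaged 4.81% ± 4.38 in arsenic and 7.02% ± 9.05 in control. The next tile holds the end of Socs1 at its higher coordinate, and 3 of the tile's 49 CpGs belong to the Tnp2 region. It averaged 1.74% ± 0.578 in arsenic and 1.28% ± 0.902 in control.

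One library set most of the spread in the low stretch between Tnp2 and Socs1. In the tile at chr16:10786001-10787000 the arsenic libraries stood at 10.7, 6.61, 0.352, 5.86 and 0.551%, against 0.578, 5.96, 0.420, 22.5 and 5.62% in control libraries 1 to 5. In control library 4, the highest, all 10 CpGs, within 118 bp, read 20 to 38.3%. Each group thus had libraries under 1% and libraries above 5% in this tile.

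Of the 4 starts of the set with covered CpGs, Izumo1, Tnp2 and Tnp1 ranked high among gene starts in level, and Odf2 low. Counted as the covered CpGs within 1 kb of the start, Izumo1 (3 CpGs, all in Fut1) lay above 98.5%, Tnp2 above 97.0%, Tnp1 above 87.5% and Odf2 above 21.6% of the 10694 gene starts. Tnp2 averaged 89.4% ± 3.94 in arsenic and 90.0% ± 2.82 in control over 10 CpGs (adjusted p = 0.957 over all starts). The median start was at 2.71%, with 83.4% of starts under 10%, 11.3% between 10 and 80% (where Tnp1 lay) and 5.32% above 80% (where Tnp2 and Izumo1 lay). Of the 4 starts of the set that could be tested, 0 were called and 0 had an unadjusted p under 0.05, against 0.0% and 6.66% of all starts (1.79% higher and 4.87% lower in arsenic). The groups overlapped at all 4, and did not overlap at 0.935% of all starts.

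**Figure D3:**
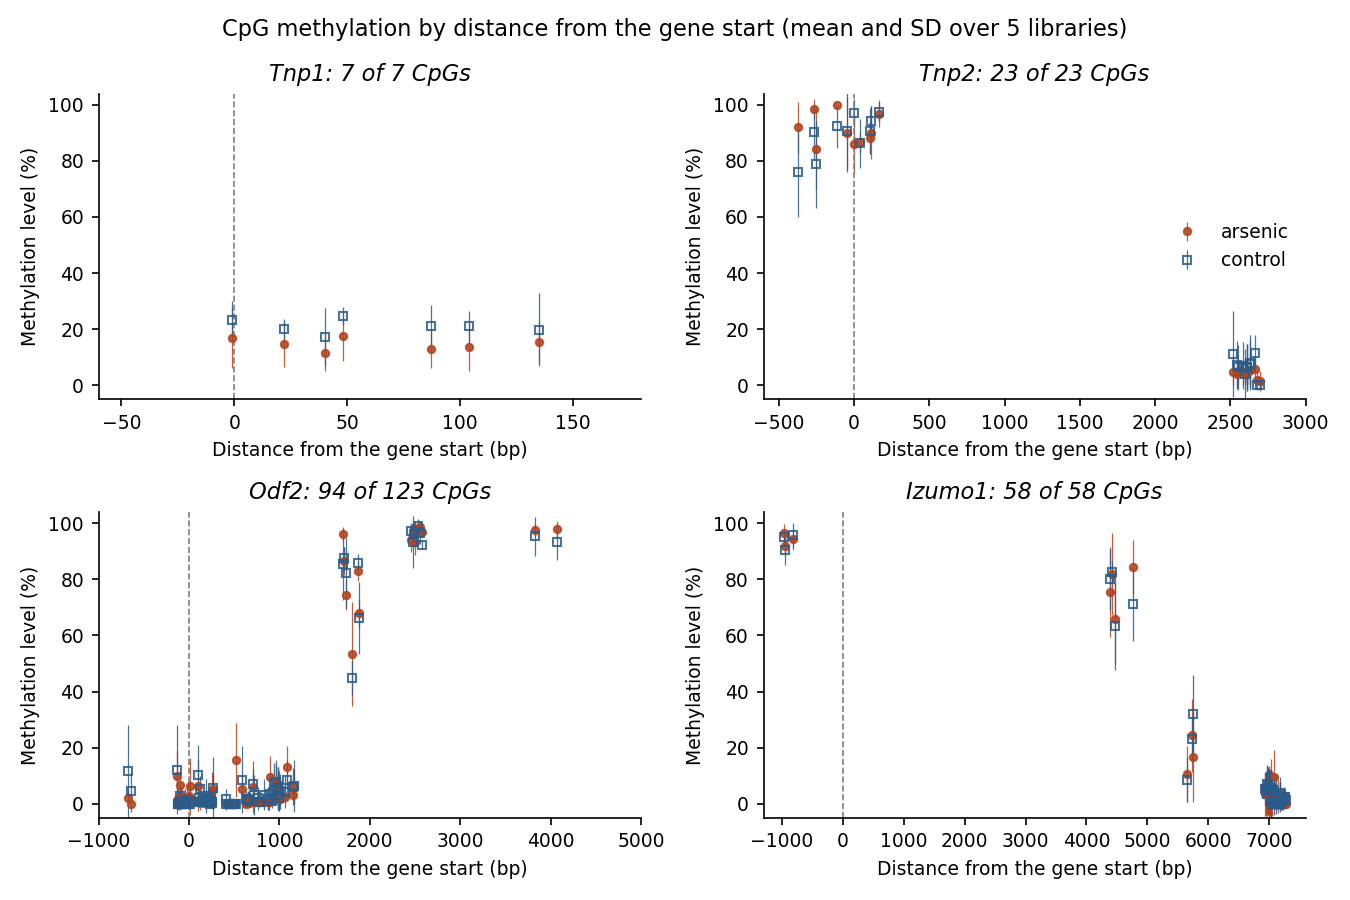
Methylation level (%) of each covered CpG by distance from the gene start (bp; positive into the gene) for Tnp1, Tnp2, Odf2 and Izumo1, circles for arsenic and open squares for control means, bars the SD over 5 libraries, the dashed line marking the start. CpGs at the Tnp2 start lie near 90%, those at the Odf2 start near 0% and those of Tnp1 between 10 and 25%; all but 1 of the CpGs beyond the Izumo1 gene lie in the neighbouring gene Rasip1.

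Crem lies at chr18:3266354-3337773, and its 41 covered CpGs all sat at the higher end of the gene, in a stretch that also belongs to the long non-coding RNA Gm6225. All 41 were under 20% methylated, and the highest averaged 8.02%. The region stood at 1.78, 1.27, 2.61, 0.479 and 4.19% in arsenic libraries 1 to 5, against 2.02, 4.50, 0.391, 10.2 and 7.49% in control libraries 1 to 5. Control libraries 4, 5 and 2 were above every arsenic library, and control library 3 was below every arsenic library. The means were 2.06% ± 1.42 in arsenic and 4.92% ± 3.99 in control (SD, n = 5 each). The read-weighted difference was -2.09 points (adjusted p = 0.905, quasi-binomial model). Without control libraries 4 and 5, the pair that stood apart in fully methylated cytosines, this difference was -0.167 points (adjusted p = 0.998). Leaving out 1 library at a time gave -3.57 points without control library 3 to -1.12 points without control library 4.

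Control libraries 4 and 5 were high at Crem across the border of its tiles. In the tile at chr18:3336001-3337000, whose 5 CpGs begin at 3336942, the arsenic libraries stood at 1.29 to 6.52%, against 15.97% in control library 4, 12.1% in control library 5 and at most 3.26% in the other control libraries. That tile averaged 2.80% ± 2.23 in arsenic and 6.81% ± 6.79 in control (SD, n = 5 each; adjusted p = 0.910 over all tiles). In the next tile, at chr18:3337001-3338000 with 36 CpGs, 12 CpGs within its first part, 149 bp from the first to the last, held the highest levels, up to 20.8% in control library 4 and 13.8% in control library 5. Of the 36 CpGs, 22 had no methylated read in control library 4 and 21 had none in control library 5. The tile averaged 1.99% ± 1.36 in arsenic and 4.63% ± 3.67 in control (SD, n = 5 each; adjusted p = 0.897 over all tiles). The dispersion (variance over that of counting error) of the Crem region was 40.6, the highest of the 10 genes, although its SDs in points were smaller than those of Tnp1.

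Izumo1 codes for the sperm surface protein that binds its partner on the egg before fusion. Its region shows how much a 2 kb flank can carry. The gene lies at chr7:45621811-45627242 on the plus strand, and of the 58 covered CpGs 4 lay in the gene, 3 in the neighbour Fut1 before it and 50 in Rasip1 after it. The region stood at 15.9, 14.5, 16.1, 14.0 and 25.5% in arsenic libraries 1 to 5, against 15.8, 19.7, 20.5, 21.6 and 26.5% in control libraries 1 to 5. Arsenic libraries 1 to 4 lay close together at the low end, beside control library 1, and arsenic library 5 stood among the highest. Control library 5, the highest, had the fewest reads (1292). Its 5 tiles stood at 97.6, 64.6, 22.4, 0.893 and 9.45% in order of position. A read-weighted level of a region with high and low parts also depends on how the reads fall among the parts. With all cytosines weighing the same, the group difference was -1.12 points. The means were 17.2% ± 4.72 in arsenic and 20.8% ± 3.84 in control (SD, n = 5 each). The read-weighted difference was -2.66 points (adjusted p = 0.948, quasi-binomial model).

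The cytosines of Izumo1 outside other genes gave another picture. Without flank cytosines inside other genes, 5 CpGs were left, at 58.0% ± 7.42 in arsenic and 59.0% ± 7.79 in control (SD, n = 5 each). The 4 CpGs of the gene itself averaged 76.9% ± 10.99 in arsenic and 74.3% ± 5.59 in control. The 50 CpGs in Rasip1 averaged 3.88% in arsenic and 5.29% in control, and the 3 CpGs in Fut1 93.4% ± 2.73 in arsenic and 92.9% ± 3.59 in control. With no flank the difference at Izumo1 was 3.12 points, and with 1 kb 1.31 points, so its direction turned with the width of the flank.

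Arsenic library 5 was high in one short stretch of Rasip1. In the tile at chr7:45628001-45629000 it stood at 14.9%, against 0.324, 0.222, 0.533 and 0.614% in arsenic libraries 1 to 4 and 2.29, 7.52, 0.201, 10.5 and 0.893% in the control libraries. In that library 21 CpGs within 207 bp had 4 to 24 methylated of 30 to 101 reads, and 14 of the 36 CpGs had none. Control library 4 was raised over much the same CpGs, 20 within 246 bp.

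Spaca1, a membrane protein gene of the acrosome, lies at chr4:34024872-34050067 on the minus strand, with 8 covered CpGs far inside the gene. It stood at 64.0, 61.4, 62.1, 64.7 and 63.6% in arsenic libraries 1 to 5, against 63.8, 63.9, 63.9, 61.0 and 59.9% in control libraries 1 to 5. All 10 libraries lay within a few points of each other. The means were 63.2% ± 1.38 in arsenic and 62.5% ± 1.92 in control (SD, n = 5 each; adjusted p = 0.993, quasi-binomial model), and the dispersion (variance over that of counting error) was 1.15, the lowest of the 10 genes.

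Single CpGs of Spaca1 sat far apart, and some differed by strand. The CpG at 34031574 had 0 methylated of 1103 reads on the minus strand over all 10 libraries, which allows a share of up to 0.272%. On the plus strand it had 6 of 1013, all in 1 library. Only 6 bp away, the CpG at 34031580 averaged 58.1% in arsenic and 62.1% in control on the plus strand, and 65.6% in arsenic and 59.8% in control on the minus strand. The CpG at 34036855 averaged 96.6% in arsenic and 96.5% in control on the plus strand, but 49.2% in arsenic and 52.1% in control on the minus strand. The CpG at 34037005 averaged 6.54% in arsenic and 14.2% in control on the plus strand, but 99.3% in arsenic and 93.2% in control on the minus strand. Whether sequence variants or the alignment of reads play a part at these 4 CpGs was not tested, and their levels as read are part of the region's level. The remaining 4 CpGs read 93.0 to 98.7% on each strand covered, in both groups.

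**Figure D4:**
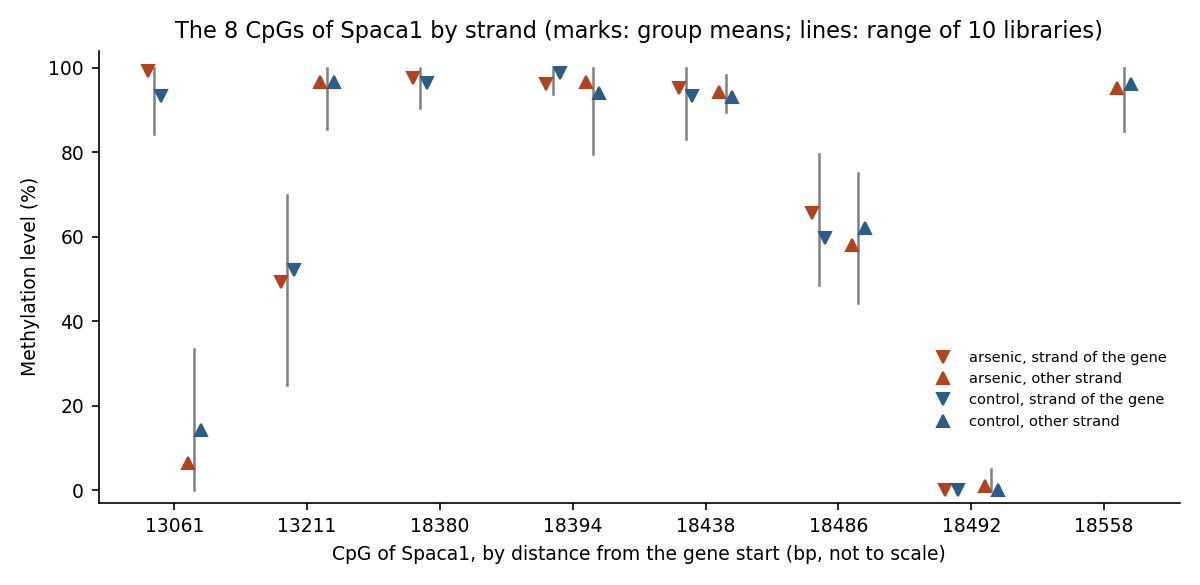
Methylation level (%) of the 8 Spaca1 CpGs in order of distance from the gene start (bp, not to scale), group means as triangles (arsenic left of control), pointing down for cytosines on the strand of the gene and up for the other strand, grey lines spanning the 10 libraries. One CpG is at or near 0% on both strands, another is near 60% on both, and 2 are high on one strand and lower on the other.

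Zpbp makes a zona pellucida binding protein of the acrosome. It lies at chr11:11279624-11464223 on the minus strand, and its 35 covered CpGs were spread inside the gene, none within 1 kb of the start. It stood at 86.5, 86.4, 83.5, 85.5 and 87.5% in arsenic libraries 1 to 5, against 86.6, 85.6, 89.5, 86.1 and 85.8% in control libraries 1 to 5. Control library 3 was the highest and arsenic library 3 the lowest, with the other 8 libraries between them. The means were 85.9% ± 1.502 in arsenic and 86.7% ± 1.61 in control (SD, n = 5 each; adjusted p = 0.960, quasi-binomial model).

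Along Zpbp the level varied more between tiles than between groups. Its 7 tiles ran from 72.6 to 95.6% in arsenic and from 74.6 to 96.1% in control. The tile with the smallest p (chr11:11377001-11378000) averaged 78.0% ± 6.82 in arsenic and 82.2% ± 8.40 in control (SD, n = 5 each; adjusted p = 0.926 over all tiles). The 3 tiles with the most CpGs were at 94.2% in arsenic and 96.1% in control (from 11287001), at 83.1% in arsenic and 82.6% in control (from 11378001), and at 94.4% in arsenic and 93.2% in control (from 11426001).

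Acr codes for acrosin, the trypsin-like protease of the acrosome, and lies at chr15:89568326-89578853. Its 7 covered CpGs stood at 96.9, 97.4, 92.8, 94.3 and 94.9% in arsenic libraries 1 to 5, against 95.5, 97.3, 94.2, 92.2 and 97.2% in control libraries 1 to 5. No library stood apart. The means were 95.3% ± 1.93 in arsenic and 95.3% ± 2.16 in control (SD, n = 5 each; adjusted p = 0.996, quasi-binomial model), higher than 98.9% of all gene regions in level. Inside the gene, 4 CpGs averaged 95.9% ± 1.70 in arsenic and 95.3% ± 2.23 in control. In the higher flank, 3 CpGs with 39 to 77 reads per library averaged 92.1% ± 11.01 in arsenic and 94.5% ± 3.34 in control.

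Odf1, a protein of the outer dense fibres, lies at chr15:38219203-38226735. Its 3 covered CpGs all lay in the higher flank, on 1 strand each, with 44 to 105 reads per library in all. It stood at 90.4, 96.6, 93.1, 94.8 and 100% in arsenic libraries 1 to 5, against 100, 88.6, 83.9, 90.7 and 95.2% in control libraries 1 to 5. Each group had a library at 100%, and the lowest 2 values were in control libraries. The means were 94.99% ± 3.61 in arsenic and 91.7% ± 6.19 in control (SD, n = 5 each). The read-weighted difference was 2.54 points (adjusted p = 0.977, quasi-binomial model). At this depth the 95% Wilson interval of a library's level was 5.07 to 19.03 points wide, and the group difference was smaller than the SD of either group.

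Odf2, a scaffold of the outer dense fibres and of centrioles, had the most covered CpGs of the set. It lies at chr2:29889014-29931746 on the plus strand, with 123 covered CpGs and 4088 to 7139 reads per library. It stood at 27.7, 27.6, 24.4, 25.7 and 28.2% in arsenic libraries 1 to 5, against 28.5, 27.9, 26.6, 31.1 and 27.9% in control libraries 1 to 5. Arsenic libraries 3 and 4 were the lowest, and control libraries 4 and 1 the highest. The means were 26.7% ± 1.63 in arsenic and 28.4% ± 1.69 in control (SD, n = 5 each). The read-weighted difference was -1.57 points (adjusted p = 0.918, quasi-binomial model). With all cytosines weighing the same, the difference was -0.124 points.

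Methylation along Odf2 stepped from near 0 to near full over its first 4 tiles. The first tile (chr2:29889001-29890000, 41 CpGs, with the start) averaged 1.74% ± 1.47 in arsenic and 1.17% ± 0.386 in control, and the second 2.21% ± 1.26 in arsenic and 2.37% ± 2.28 in control. The third averaged 72.7% ± 5.91 in arsenic and 72.2% ± 6.08 in control, and the fourth 96.4% ± 0.924 in arsenic and 95.9% ± 1.62 in control. The step had the same place in both groups. Within 1 kb of the start, 74 CpGs averaged 1.79% ± 0.897 in arsenic and 1.49% ± 0.865 in control (SD, n = 5 each; adjusted p = 0.925 over all starts). Further in, the tile with the smallest p (chr2:29909001-29910000, 3 CpGs) averaged 94.8% ± 1.76 in arsenic and 90.6% ± 6.68 in control (adjusted p = 0.895 over all tiles).

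Akap3, an anchor protein of the fibrous sheath of the tail, lies at chr6:126853098-126874308 on the plus strand. Its 31 covered CpGs lay inside the gene, none within 1 kb of the start, whose 300-base window held no CpG, like 5.77% of all promoters. It stood at 91.8, 88.7, 84.5, 84.7 and 86.4% in arsenic libraries 1 to 5, against 89.1, 88.6, 82.8, 91.4 and 85.1% in control libraries 1 to 5. Both groups covered much the same span. The means were 87.2% ± 3.04 in arsenic and 87.4% ± 3.44 in control (SD, n = 5 each; adjusted p = 0.995, quasi-binomial model). Its 4 tiles ran from 82.3 to 92.7% in arsenic and from 83.0 to 91.9% in control. The tile with most CpGs (chr6:126865001-126866000, 15 CpGs) averaged 82.3% ± 3.53 in arsenic and 83.0% ± 6.57 in control, and the tile with the smallest p (chr6:126872001-126873000) 92.7% ± 3.95 in arsenic and 88.6% ± 9.18 in control (adjusted p = 0.955 over all tiles).

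Over the 10 genes together, the group differences of read-weighted levels ran from -7.11 points at Tnp1 to 2.54 points at Odf1, and 7 of 10 (70.0%) were negative. At Akap3 this difference was 0.188 points, opposite in sign to that of the library means. Of all gene regions 59.7% were lower in arsenic. The median difference was -0.806 points over the 10 genes and -0.434 points over all regions, and the median size of a difference, sign aside, was 1.33 points over the 10 genes and 1.31 points over all regions. The mean level over the 10 genes was 51.5% ± 1.11 in arsenic and 52.8% ± 1.21 in control libraries, and over all regions 45.1% ± 0.635 in arsenic and 45.7% ± 0.517 in control (SD, n = 5 each). These values describe the set, which was chosen with earlier results known, and carry no test.

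**Figure D5:**
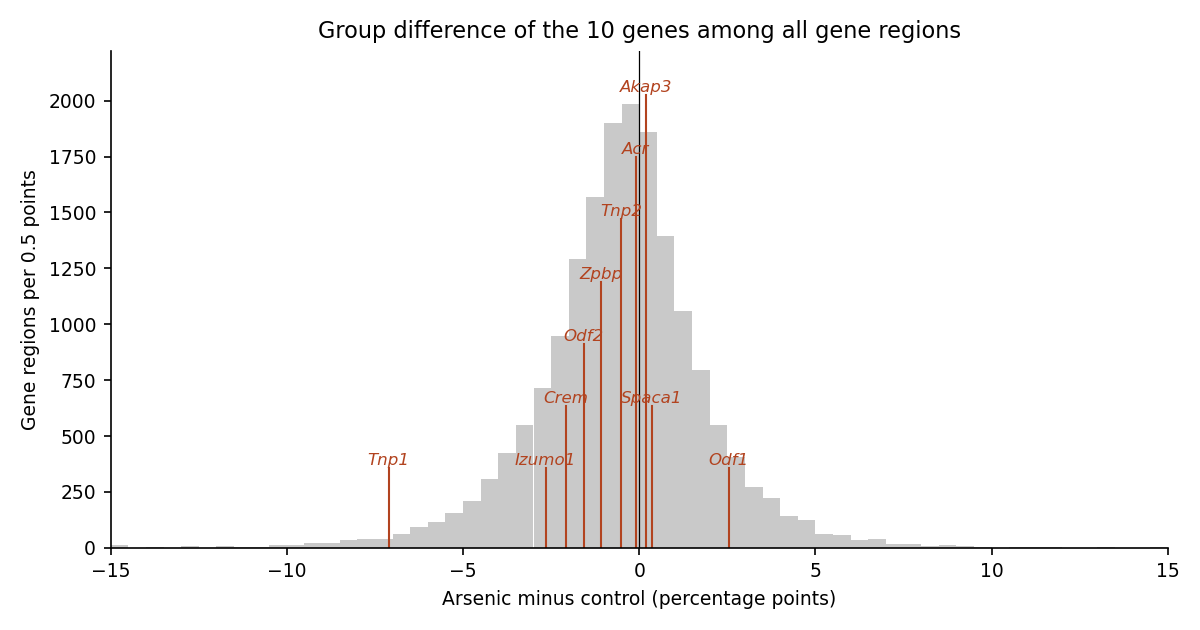
Histogram of the group difference (arsenic minus control, percentage points) over all gene regions in bins of 0.5 points, with the 10 genes as labelled lines whose heights only separate the labels. Tnp1 lies in the low tail at -7.11 points, and the other 9 genes lie between -2.66 and 2.54 points.

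At the finer scales the set also gave no call. The 10 genes held 35 tiles of 1 kb with at least 3 covered CpGs, of which 0 were called, against 0.0% of all 165978 tiles. None of the 35 had an unadjusted p under 0.05, against 5.8% of all tiles (2.47% higher and 3.34% lower in arsenic), and 0 of 35 had groups that did not overlap, against 0.832%. The smallest p was that of the Tnp1 tile, at an adjusted p of 0.881. With limma on log2 ratios 0 member tiles and 1 tile of the whole table were called.

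Of the 336 CpGs, 0 were called, against 0.0% of all CpGs, and limma on log2 ratios called 0. The groups overlapped at all 336, and did not overlap at 0.575% of all CpGs. An unadjusted p under 0.05 was reached by 16 (4.76%), against 7.52% of all CpGs. Of the 336, 8 had such a p and were higher in arsenic, against 3.29% of all CpGs. Another 8 of the 336 had such a p and were lower, against 4.23% of all CpGs. Odf2 held 7 of the 16, Crem 5, all lower in arsenic, Zpbp 2, and Tnp2 and Odf1 1 each. Tnp1, Akap3, Izumo1, Spaca1 and Acr held none. The 5 of Crem lay from 3337381 to 3337441. Their only methylated reads were in control library 2 and, at 3337381, also in control library 3. CpGs this close are often read by the same fragments.

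The CpG with the smallest p lay 519 bp into Odf2, at chr2:29890239, and was covered on 1 strand with 12 to 37 reads per library. It stood at 33.3, 17.7, 0.0, 21.4 and 5.41% in arsenic libraries 1 to 5, against 0.0% in all 5 control libraries. Arsenic library 3 shared the 0 of the control libraries, and the adjusted p was 0.653, the value shared by the 8 CpGs with the smallest p. Over all 10 libraries 18 of 252 reads were methylated there. The covered CpGs just before it, from 29890134 to 29890225, read 0.0% in all 10 libraries. The next covered CpG after it, at 29890307, averaged 5.198% ± 5.226 in arsenic and 8.615% ± 11.85 in control (SD, n = 5 each).

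The other 7 of those 8 CpGs lay near one end of the scale. At 10788768, 114 bp before the Tnp2 start, all 5 arsenic libraries were at 100%, against 92.3% ± 7.61 in control. Zpbp had 98.5% ± 1.55 in arsenic and 93.0% ± 3.61 in control at 11378033, and 100% in every arsenic library and 94.9% ± 7.05 in control at 11343275. Odf2 had 96.2% ± 2.54 in arsenic and 85.4% ± 12.7 in control at 29891426, and 0.0% in every arsenic library and 1.84% ± 2.55 in control at 29890352. Crem had 0.0% in every arsenic library at 3337381 and 3337441, and 2.62% ± 4.24 and 2.93% ± 6.55 in control (SD, n = 5 each). Control library 2 stood at 9.76% and 14.6% there, and control library 3 at 3.33% at 3337381. All other control values at these Crem CpGs were 0.0%. At each of these 7 CpGs at least 1 control library lay within the span of the arsenic libraries.

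The set held more unmethylated CpGs than the table as a whole. Of its 336 CpGs, 56.0% averaged under 20%, against 36.0% of all CpGs, 32.7% averaged above 80%, against 48.7%, and 11.3% lay between, against 15.3%. The low CpGs came from few places: Odf2 held 79 of the 188, Izumo1 49 in its higher flank, Crem 41, Tnp2 13 in its lower flank, Tnp1 5 and Spaca1 1. Akap3, Zpbp, Acr and Odf1 had none under 20%.

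Among other genes of the same structures, chosen by role, 0 passed the test. Of 47 listed, 39 had at least 3 covered CpGs, and 16 were higher and 23 lower in arsenic. Unadjusted p under 0.05 was reached by 2 of the 39, Rfx2 and Tekt1, against 5.72% of all regions. Rfx2, a transcription factor of spermatids, averaged 36.7% ± 1.21 in arsenic and 34.1% ± 2.24 in control, and Tekt1, a tail filament protein gene, 17.9% ± 1.71 in arsenic and 21.5% ± 3.25 in control (SD, n = 5 each; both adjusted p = 0.869, quasi-binomial model).

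By structure, 13 of 15 nucleus genes, 14 of 18 acrosome genes and 12 of 14 tail genes were measured, with 5, 4 and 7 of them higher in arsenic. One of the nucleus genes, Prm3, was not a separate measurement: its 9 covered CpGs, in its flank, are also CpGs of the Tnp2 region. The next smallest p among genes higher in arsenic were those of Ropn1l, a fibrous sheath protein gene, at 71.1% ± 5.75 in arsenic and 63.5% ± 2.24 in control, and Chd5, a chromatin remodeller, at 85.4% ± 1.07 in arsenic and 84.3% ± 0.722 in control. Among genes lower in arsenic they were Tbpl1, a relative of the TATA-binding protein, at 14.2% ± 3.98 in arsenic and 17.9% ± 4.35 in control, and Izumo4 at 1.46% ± 1.65 in arsenic and 3.61% ± 4.87 in control (SD, n = 5 each). None of these 4 passed (adjusted p = 0.887 to 0.905).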

How the data were processed

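Testis DNA of 10 libraries (5 arsenic, 5 control) was made into reduced representation libraries. Per the submitters' processing notes, mm10, methylKit 1.22.0, Bismark 0.22.3 and Trim Galore 0.6.5 were used, with settings not given in the sources used here. The authors deposited one table of read counts per cytosine and library (all, methylated and unmethylated reads), per the file headers; the counts are not normalised. The lowest coverage was 10 reads, so a minimum of 10 removed nothing. Gene positions and, from the promoter table, strands and starts came from RefSeq on GRCm38.p6; 7 of the 10 genes had a start there. Exons and repeats were not analysed here.

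Reads were summed per gene region, 1 kb tile or CpG (both strands together) with at least 3 CpGs for regions, tiles and starts. Each was fitted with a quasi-binomial logistic model, its dispersion squeezed across features with limma 3.58.1 (R 4.3.3) and not under 1, with an F test and Benjamini-Hochberg adjustment over all features of that kind (Python 3.11.15, numpy 2.4.6, scipy 1.17.1, pandas 2.3.3). The model was tested on simulated data. Means with an SD are over libraries, while differences are of read-weighted levels. Intervals (Wilson, 95%) and limits from a count of 0 (3 counts) cover counting error only.

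The members, gene lists and rule for named features (per gene the tile at the start, with most CpGs and with the smallest p; the 8 CpGs with the smallest p; the 3 other genes with the smallest p in each direction) were chosen with earlier results of these data known. Some tiles, strands and libraries are named beyond that rule, after their values were seen. Alternatives were a coverage of 20, narrower flanks, limma with 0.5 reads added, limma on mean levels, a replicate block, 5 CpGs per tile, single strands, and leaving out libraries; leaving out flank cytosines inside other genes was added after seeing the data.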

Additional observations from a re-analysis of the deposited data

Results flagged for a closer look

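In 56 groups of 5 libraries, the highest or lowest library stood far from the others 8 times, by Dixon's test at the 95% level. The groups were each gene region and each tile named by the rule above, in arsenic and in control. Chance gives about 1 in 20 separate groups. Tiles discussed beyond the rule were not tested, among them the Tnp2 tile at chr16:10786001-10787000, where control library 4 stood at 22.5%. The groups are not separate, since a region and its tiles share reads: the regions of Tnp1 and Odf1 hold the same values as their tiles, and both Izumo1 values below rest on the same reads. At Izumo1 it was arsenic library 5, at 25.5% for the region and 14.9% for the tile in Rasip1 (chr7:45628001-45629000). At Acr it was arsenic library 3, at 72.6% in the tile of the higher flank (chr15:89579001-89580000), where a library had 39 to 77 reads. The 5 control values came from 4 libraries. Control library 3 was high at Zpbp, at 89.5% for the region, and at the first Odf2 tile (chr2:29889001-29890000), at 1.84%. Control library 1 was low in a Zpbp tile (chr11:11287001-11288000), at 90.5%, and control library 5 in another (chr11:11377001-11378000), at 67.8%. Control library 2 was high in the tile that holds the higher-coordinate end of Socs1 (chr16:10785001-10786000), at 2.89%.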

How the results depend on the processing

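Under each alternative run for them, 0 member regions, tiles and CpGs and 0 of the other genes were called; the starts were tested with the main settings alone. Differences of single genes, none of which passed, kept their sign in 154 comparisons and changed it in 23. Part of the 154 could not have changed. Limma on log2 ratios and the replicate block alter the p-value and not the difference. The changes to the flank left the values of several genes, such as Crem and Odf2, as they were. With a coverage of at least 20 Tnp2 stood at 0.739 points, Akap3 at -0.710 and Izumo1 at 2.18. With no flank Izumo1 stood at 3.12 and Acr at 0.444, and with a 1 kb flank Izumo1 at 1.31. With limma on mean levels Tnp2 stood at 0.238 and Akap3 at -1.10. Without control libraries 4 and 5 Tnp2 stood at 2.01 and Spaca1 at -0.859. Odf1 had fewer than 3 CpGs with a coverage of 20, no flank or a 1 kb flank.

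Leaving out 1 library at a time gave differences of -9.63 to -4.51 points at Tnp1, -2.24 to 1.83 at Tnp2, -3.57 to -1.12 at Crem, 0.530 to 4.13 at Odf1, -2.06 to -0.957 at Odf2, -1.12 to 1.01 at Akap3, -4.87 to -1.77 at Izumo1, -0.243 to 0.872 at Spaca1, -1.50 to -0.231 at Zpbp and -0.638 to 0.576 at Acr. The difference of the mean over the 10 genes ran from -1.66 to -0.868. The cause of these shifts was not tested.

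Libraries of the groups share replicate numbers, and the labels do not say whether these pair them. Deviations from the group mean correlated at -0.0126 to 0.0167 for same-numbered pairs and -0.0193 to 0.0168 for others. This gave no sign of pairing, but cannot exclude a shared litter or batch. With a replicate block, 0 regions and 0 tiles were called, and the adjusted p of Tnp1 was 0.772. Depth limits Odf1 (44 to 105 reads a library) and the flank of Acr most. Akap3, Spaca1 and Zpbp had no covered CpG within 1 kb of the start, and Crem, Odf1 and Acr were not tested there.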
